A study of Mus musculus with 2 samples.

Results

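Genes of ribosome biogenesis and the nucleolus were read in mouse small-intestinal crypts with and without Lpcat3, which encodes an acyltransferase that remodels membrane phospholipids. The set is a list of 40 genes, chosen by function and taken from the array wherever a probe set carries the symbol of that gene alone; 38 of the 40 were found, among 18193 genes named on the array. Npm3 had no such probe set, and Mrto4 shares its probe set with pseudogenes. Signals of all 38 exceeded a floor of 92.9 on both arrays, a level set at the 50th percentile of all signals because no detection calls were given.

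Control mice were Lpcat3 F/F, and knockout mice were Lpcat3 F/F, Villin-CreERT2. The Villin promoter places the tamoxifen-activated Cre in the intestinal epithelium, so other cells of the tissue keep the gene. Mice of both groups were 8 to 10 weeks old and received tamoxifen for 5 days at 1 mg per mouse and day, and crypts were isolated 2 weeks later. Each group's RNA was a pool of 5 mice, read on 1 Affymetrix array. No replicate exists, so no test or p-value is given. Differences of genotype, of the Cre transgene, of pool and of array cannot be told apart. As a check of the labels, Lpcat3 gave 4691 in control and 928 in knockout (log2 ratio -2.34).

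Ribosomes are made in the nucleolus, where RNA polymerase I transcribes the long precursor of most ribosomal RNA. Small nucleolar particles then modify that RNA, and a series of assembly factors folds, cuts and packs it into the small (40S) and large (60S) subunits. The proteins of this pathway are abundant in growing cells, including the dividing cells of the intestinal crypt, and many of their genes are known targets of the transcription factor Myc.

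These transcripts were at nearly the same level in both pools. The median log2 ratio, knockout over control, was 0.033 (1.02-fold) over the 38 genes, against -0.042 over all 11496 measured genes. None of the 38 was at least 1.5-fold higher, where 4.76% of all measured genes were. A single gene, Rrp9, was at least 1.5-fold lower, where 8.74% of all measured genes were. At a narrower limit, a log2 ratio of 0.32 in size, 3 genes were higher (Rrp12, Nop2 and Nolc1) and 3 lower (Rrp9, Rrp1b and Nol6), where 14.1% and 21.8% of all measured genes were. A log2 ratio above 0 was found for 21 of the 38 and for 44.9% of all measured genes. Neither direction therefore prevailed among these genes. Most of the 38 had high signals, and counts among genes of like signal follow below.

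The probe error of a log2 ratio, estimated from genes read by more than 1 probe set, had an SD of 0.28 (1.21-fold, 4579 genes). Variation from mouse to mouse or pool to pool is not part of it. Within 1 SD of it lay 31 of the 38 ratios and 58.0% of those of all measured genes. Dim genes scatter more on this array. For bright genes, with a second brightest probe set reaching the 75th percentile of all signals (451), the SD was 0.22 (2211 genes). Among genes at or above 451 on both arrays, 27 of 32 members lay within the wider 0.28, against 66.6% of all 6629 such genes. The interquartile range of the ratios was 0.23 for these 32 members and 0.38 for all such genes, and the medians were 0.020 and -0.0065. None of the 32 members was past 1.5-fold in either direction, and 53.1% were above 0. Of the 6629 genes, 223 were at least 1.5-fold higher, 271 at least 1.5-fold lower and 49.1% above 0. Genes of this signal were thus past 1.5-fold less often than all measured genes.

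**Figure D1:**
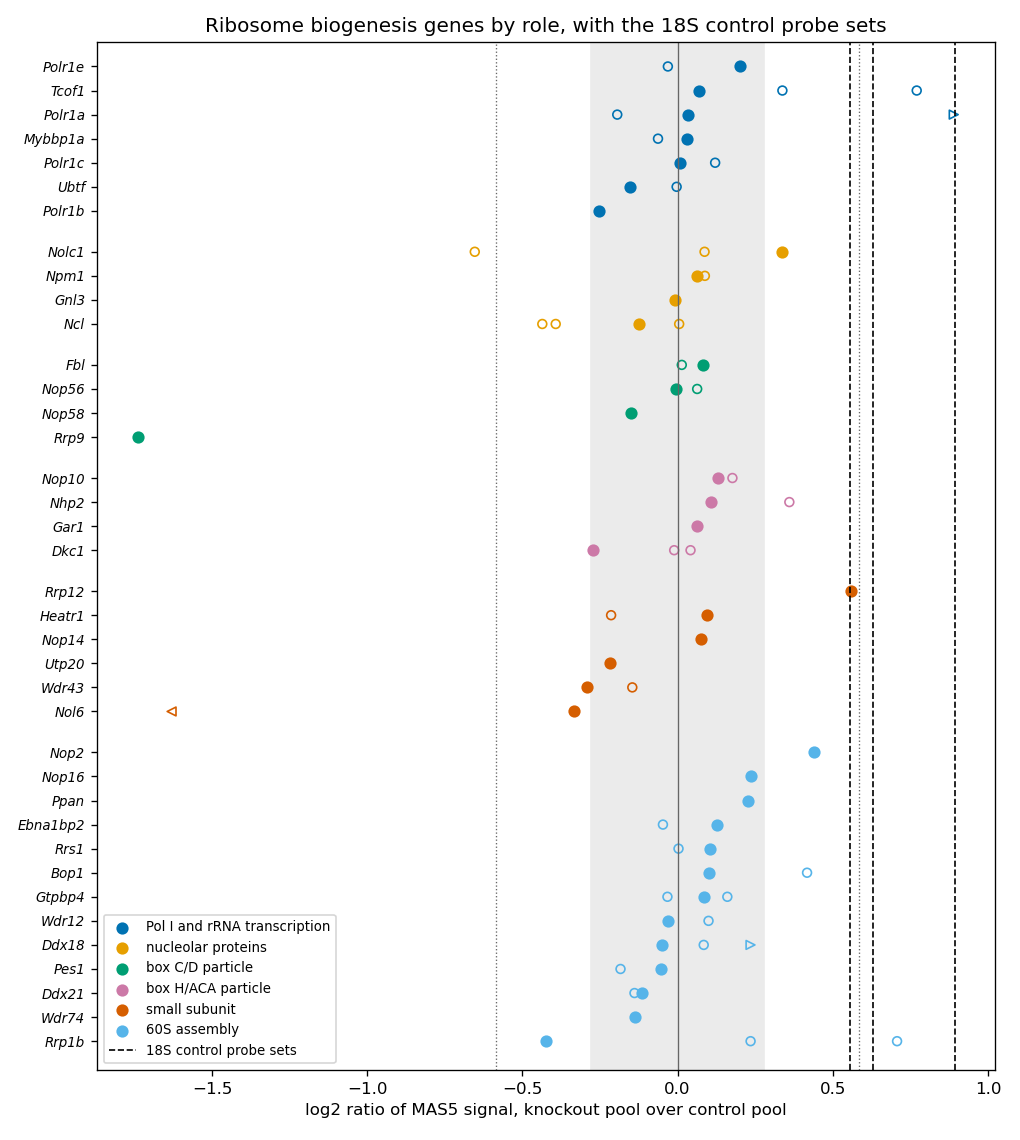
Log2 ratio of MAS5 signal, knockout pool over control pool, for the 38 genes grouped by role. Filled points are the brightest probe set of each gene and open points its other probe sets above the floor (triangles where 1 array was below it, a bound). The grey band is 1 SD of the probe error (0.28), dotted lines mark 1.5-fold and dashed lines the 3 probe sets for 18S rRNA. Most filled points lie in the band, Rrp9 stands alone at -1.74, and Rrp12 is the only gene whose filled point reaches the lowest 18S line.

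The promoters of this set were searched for the letters that the Myc-Max dimer binds, CACGTG, which reads the same on both strands. RefSeq promoters of GRCm38.p6, 250 bases before to 50 after each annotated start, were at hand for 31 of the 38 genes, and 5 of these genes (16.1%) held the motif in at least 1 promoter. It was held by 11.8% of the 9338 measured genes with a promoter and by 8.09% of all 27025 genes with a promoter. Counted by single promoters, it was in 7.15% of all 32851. The 5 sites are shown as 30-base windows, 5′ to 3′ on the strand of the gene, with the motif in capitals, to show where the searched letters lie; the other 26 genes had no CACGTG in this window.
Mybbp1a, chr11:72441347-72441376, plus strand, motif starting at base 41 of the transcript: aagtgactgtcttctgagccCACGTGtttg
Nop2, chr6:125131811-125131840, plus strand, motif starting 60 bases before the transcript: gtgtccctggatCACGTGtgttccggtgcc
Pes1, chr11:3963965-3963994, plus strand, motif starting at base 3 of the transcript: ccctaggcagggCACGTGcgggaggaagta
Utp20, chr10:88826765-88826794, minus strand, motif starting at base 38 of the transcript: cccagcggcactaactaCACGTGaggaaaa
Wdr43, chr17:71616220-71616249, plus strand, motif starting at base 18 of the transcript: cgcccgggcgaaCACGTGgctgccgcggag
The site in Nop2 lay 60 bases before the start, and the others lay in the 50 bases searched after it. The log2 ratios of these genes ran from -0.29 (Wdr43) to 0.44 (Nop2) with a median of -0.053, and the 26 others had a median of 0.0015. Genes with and without the motif thus overlapped. The related letters CACGCG, or on the other strand CGCGTG, were in a promoter of 12 of the 31 genes (38.7%) and of 19.5% of the measured genes. Mybbp1a and Pes1 held both these letters and CACGTG. A match in a promoter describes its letters only.

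Genes of RNA polymerase I and rRNA gene transcription lay close to equality, with all 7 within the probe error and a median of 0.032. Polr1a, the largest subunit of the enzyme, had signals of 342 in control and 350 in knockout (log2 ratio 0.034). Polr1b, the second largest subunit, stood at 371 and 311 (-0.25), the lowest of the group and read by 1 probe set. Polr1c, a subunit shared with RNA polymerase III, stood at 1512 and 1520 (0.0079). Both large subunits were thus within 1.2-fold of equal. Polr1e, an accessory subunit, had signals of 297 and 341 (0.20). Ubtf, the factor that bends and opens the rRNA gene promoter, stood at 1279 and 1149 (-0.15). Mybbp1a, a Myb-binding nucleolar protein and the first of the promoters printed above, stood at 3670 and 3751 (0.032).

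Tcof1, which encodes the nucleolar protein treacle, had signals of 523 and 548 (0.068) by its brightest probe set. Its dimmer probe sets gave 265 and 335 (0.34), and 206 and 351 (0.77). All 3 were higher in the knockout pool, by different amounts. The dimmest probe set of Polr1a that reached the floor did so in knockout only (35.2 in control, 172 in knockout), a bound of at least 1.85-fold higher, while its second gave -0.19.

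The abundant nucleolar proteins had a median of 0.028 over 4 genes. Ncl, nucleolin, an RNA-binding protein of the nucleolus, had signals of 13971 in control and 12829 in knockout (-0.12). Its 3 other probe sets above the floor gave 0.0051, -0.39 and -0.44. Npm1, nucleophosmin, a histone and ribosome chaperone, stood at 18411 and 19245 (0.064), with 0.088 by its second probe set. Gnl3, nucleostemin, a GTP-binding protein known from stem and progenitor cells, stood at 2839 and 2824 (-0.0076). Nolc1, a chaperone of small nucleolar particles, gave opposite directions: 1083 and 1367 (0.34) by its brightest probe set, 576 and 366 (-0.65) by the second, and 307 and 326 (0.087) by the third. No direction can be read for Nolc1, whereas both probe sets of Npm1 were within 1.1-fold of equal.

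The box C/D particle, which places methyl groups on ribosomal RNA, had 3 genes at even level and 1 apart. Fbl, fibrillarin, its methyltransferase, had signals of 5498 in control and 5822 in knockout (0.082), and its second probe set gave 0.013. Nop56, a core protein, stood at 3824 and 3811 (-0.0049), and its partner Nop58 at 2049 and 1849 (-0.15). These 3 genes were therefore within 1.2-fold of equal. Rrp9, a protein of the U3 particle that guides the first cuts of the precursor, had a signal of 340 in control and 102 in knockout. This is a log2 ratio of -1.74 (3.34-fold lower), against a range of -0.42 to 0.56 in the other 37 genes. Rrp9 was read by 1 probe set, and its knockout signal lay just above the floor. With the floor at the 70th percentile its ratio was -0.10, a bound, and with a pseudocount equal to the floor it was -1.15.

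The box H/ACA particle, which converts uridine to pseudouridine, had a median of 0.084, and all 4 genes lay within the probe error of 0.28. Dkc1, dyskerin, the enzyme of the particle, stood at 4350 and 3601 (-0.27), past the 0.22 of bright genes. Its dimmer probe sets gave 0.042 and -0.011. The small partners were slightly higher in the knockout pool. Nhp2 had signals of 7037 and 7576 (0.11), Gar1 of 3100 and 3235 (0.062) and Nop10 of 11230 and 12286 (0.13). The second probe sets of Nhp2 and Nop10 gave 0.36 and 0.18.

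**Figure D2:**
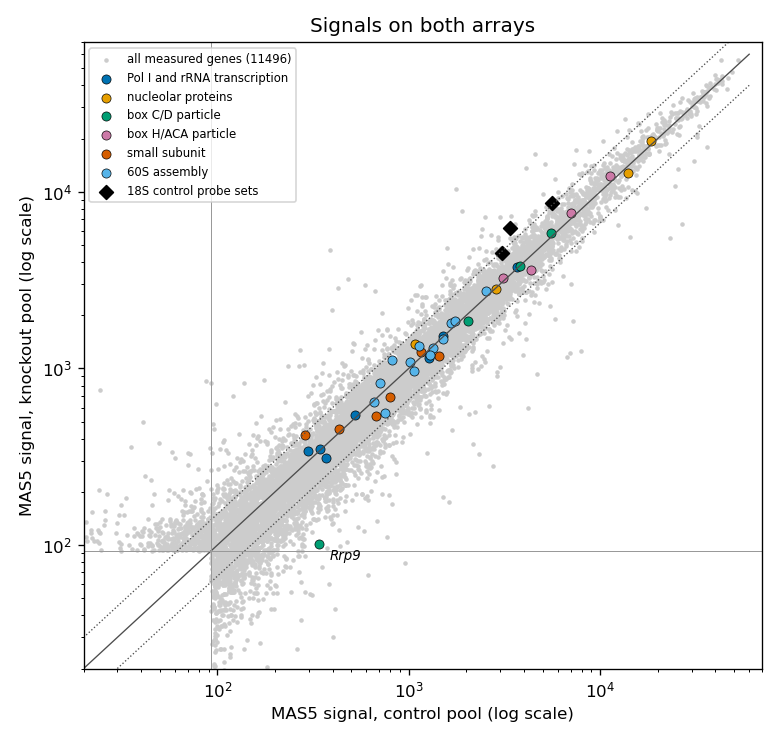
MAS5 signal of each gene in the control pool (x) and the knockout pool (y), both on log scales. Coloured points are the 38 genes by role, black diamonds the 18S control probe sets and grey points all 11496 measured genes, of which 45 lie below the axes at a signal of 20; thin lines mark the floor of 92.9, the solid diagonal equality and the dotted diagonals 1.5-fold. Except for Rrp9, the coloured points follow the diagonal from about 287 to 19245, within the dotted lines.

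Genes of the small subunit processome, the large complex that forms on the nascent precursor, had a median of -0.072 over 6 genes and the widest spread after the box C/D group. Rrp12, which takes part in subunit maturation and export, was the highest of the set, with signals of 287 in control and 422 in knockout (0.56, 1.47-fold), by 1 probe set. Quantile normalisation, lowess and centring on the median gene each carried Rrp12 past 1.5-fold, up to 0.65. Nol6 had 675 and 535 (-0.33), and its second probe set 287 in control and 51.2 in knockout, below the floor, a bound of at least 3.10-fold lower. The probe sets of Nol6 thus had the same direction but different size.

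Heatr1, a scaffold of the processome that also supports polymerase I, stood at 1153 and 1231 (0.095), with -0.21 by its second probe set. Nop14 had signals of 433 and 456 (0.074). Utp20 stood at 798 and 686 (-0.22), and Wdr43 at 1440 and 1178 (-0.29), with -0.15 by its other probe set. Utp20 and Wdr43 are the promoters printed above with the motif at bases 38 and 18, and both were lower in the knockout pool, by up to 1.22-fold. Of the other genes with that motif, Pes1 stood at -0.053, Mybbp1a at 0.032 and Nop2 at 0.44.

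Genes of 60S assembly, the largest role group, had a median of 0.085 over 13 genes, and 11 of them lay within the probe error. Bop1, Pes1 and Wdr12 form 1 complex needed to mature the large subunit, and none differed by more than 1.1-fold by its brightest probe set. Bop1 had signals of 1019 and 1092 (0.10), with 0.42 by its second probe set. Pes1 stood at 1345 and 1297 (-0.053) and Wdr12 at 658 and 644 (-0.032). Nop2, an RNA methyltransferase, was the highest of the group with 818 and 1111 (0.44), by 1 probe set; its promoter is the one with the motif before the start. Rrp1b was the lowest with 751 and 560 (-0.42), but its other probe sets gave 0.24 and 0.71. No direction can be read for Rrp1b, as for Nolc1.

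The other members of that group lay close to equality. Nop16 (1135 in control, 1339 in knockout; 0.24) and Ppan (711 and 832; 0.23) were the next highest. Rrs1, needed to bring the 5S particle into the large subunit, stood at 2538 and 2730 (0.11), and Ebna1bp2 at 1655 and 1809 (0.13). Gtpbp4, a nucleolar GTP-binding protein, had signals of 1738 and 1844 (0.085). The RNA helicase genes Ddx18 (1513 and 1462; -0.049) and Ddx21 (1292 and 1193; -0.12) and the WD-repeat gene Wdr74 (1068 and 972; -0.14) were slightly lower. All of these differed by less than 1.2-fold.

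How far a direction can be read from such ratios was checked within genes. A second probe set above the floor on both arrays was present for 25 of the 38 genes, and it had the same sign as the brightest in 13. Over all 4579 genes with such a pair the signs were the same in 65.7%. The probe error among these 25 members had an SD of 0.21, so most of their ratios are no larger than the disagreement of probe sets. A further 12 members, among them Rrp9, Rrp12 and Nop2, were read by 1 probe set above the floor and have no such check.

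**Figure D3:**
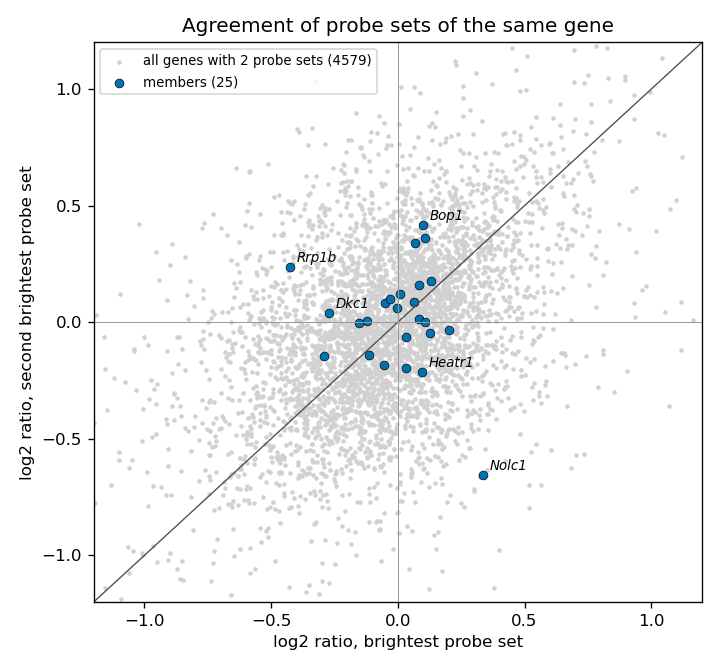
Log2 ratio, knockout over control, by the brightest probe set (x) and the second brightest (y) of the same gene, for 25 members (blue) and all 4579 genes with such a pair (grey, of which 88 lie beyond the axes at 1.2). The diagonal marks equal ratios. Members cluster around 0, with 13 of 25 in the quadrants of equal sign and Nolc1 and Rrp1b farthest into the quadrants of opposite sign.

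The product of the pathway was represented by 3 probe sets for 18S rRNA that serve as array controls. Their signals were 3361 in control and 6240 in knockout for the 3′ part, 3067 and 4508 for the middle, and 5607 and 8684 for the 5′ part. The log2 ratios were 0.89, 0.56 and 0.63, with a median 0.60 above that of the 38 genes. Of the 38 genes, 37 lay below the lowest 18S ratio, as did 94.7% of all measured genes, so lying below 18S does not set these genes apart. Rrp12 (0.56) was the exception. Ribosomal RNA lacks the poly(A) tail from which array targets are usually primed, so these probe sets are no measure of the rRNA content of the cells.

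Other control probe sets differed as well. Those for Gapdh had ratios of 0.36 to 0.55 and those for Actb of 0.11 to 0.39, while none of the 18 hybridisation controls, which are spiked in, differed by more than 0.086. The signal of the 3′ probe set over that of the 5′ one went from 0.60 (control) to 0.72 (knockout) for 18S. The same quantity was 1.98 and 1.64 for Actb and 0.78 and 0.74 for Gapdh, where it depends on RNA integrity. Their part in the 18S difference was not tested.

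The rest of the pathway also lay near equality. Of 133 further biogenesis genes listed by function, 128 were measured, with a median of 0.014. Past 1.5-fold there was 1 gene in each direction, where 4.76% of all measured genes were higher and 8.74% lower. The higher one was Ddx49, a helicase gene, with signals of 1103 and 1671 (0.60). Rrp15 (0.57), Lsg1 (0.53), Exosc4 (0.53) and Noc3l (0.48) followed it within 1.5-fold. The lower one was Ttf1, the factor that ends polymerase I transcription, with signals of 333 and 173 (-0.95), and -1.03 by its second probe set. Next lowest were Rsl24d1 (-0.56), Gnl3l (-0.48), Utp25 (-0.47) and Shq1 (-0.46), the last a chaperone of dyskerin.

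By function, the medians of these further genes were 0.013 over 11 of polymerase I, 0.0025 over 49 of the small subunit, 0.053 over 43 of the large subunit, and 0.012 over 25 of small-nucleolar-particle assembly, the exosome and precursor-cutting enzymes. Of 79 genes for cytosolic ribosomal proteins, which the assembly factors mount on the rRNA, 43 were measured through probe sets with 1 symbol. They had a median of -0.040, and 41 of them lay within the probe error. A log2 ratio above 0 was found for 13 of the 43 (30.2%), where 44.9% of all measured genes had it. Many of the 43 had signals above 20000 on both arrays, a range whose ratios were not examined apart. The only one at least 1.5-fold higher, named here after its value was seen, was Rps27 (159 and 370; 1.22), by a dim probe set, and none was 1.5-fold lower, beside the same 4.76% and 8.74%.

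**Figure D4:**
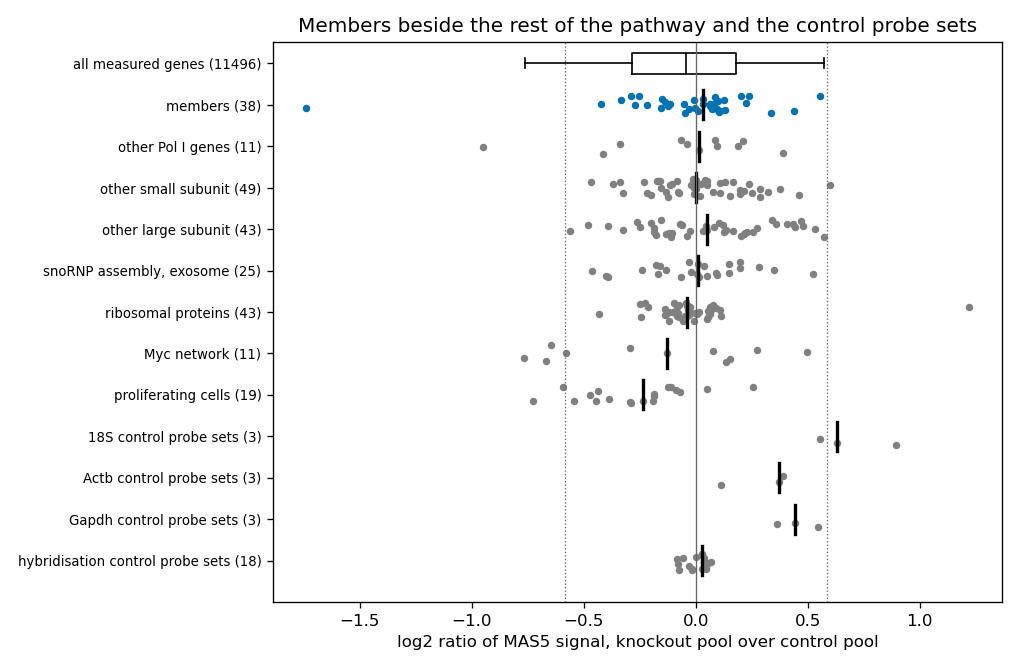
Log2 ratio, knockout over control, for the 38 genes (blue), further genes of the pathway, ribosomal protein genes, the Myc network, proliferation markers and control probe sets, with the number measured in parentheses. Points are genes or probe sets, thick bars medians, and the box shows the quartiles of all measured genes with whiskers at the 5th and 95th percentile; dotted lines mark 1.5-fold. The medians of the 38 genes and of the further biogenesis genes lie between 0.0025 and 0.053, that of ribosomal proteins at -0.040 and that of 18S at 0.63.

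Myc, whose protein pairs with Max to bind the motif shown above, had signals of 1112 in control and 907 in knockout (-0.29) by 1 probe set, a value at the edge of the probe error. Max stood at 459 and 504 (0.13). Of the 11 genes of the network, 3 were at least 1.5-fold lower, Mga (-0.77), Mxd4 (-0.67) and Mycn (-0.65), where 8.74% of all measured genes were. The second probe sets of Mga and Mycn gave 0.10 and 0.11, while that of Mxd4 gave -0.57. Mxd3 was at -0.58 and Mxi1, which like the Mxd proteins competes with Myc for Max, at 0.50. The median of the network was -0.13.

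Marker signals of some cell types differed between the pools. Markers of the crypt epithelium were all above the floor (15 of 15), with a summed signal of 261240 in control and 255868 in knockout, and ratios from -2.25 (Lgr5) and -0.59 (Olfm4) to 0.24 (Vil1) and 0.44 (Krt20). Of 19 proliferation markers measured, 2 were above 0, where 44.9% of all measured genes were, and 2 (10.5%) at least 1.5-fold lower, near the 8.74% of all measured genes. Their summed signal was 73713 and 61156 and their median -0.23. Mcm6 (-0.72) and Ccna2 (-0.59) were lowest, and Birc5 (0.26) and Plk1 (0.049) highest. The median of these dividing-cell genes thus lay below that of the 38 biogenesis genes, a difference with no test. In bulk RNA, fewer cells of a type and less RNA per cell cannot be told apart.

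Markers of T and natural killer cells were lower in the knockout pool, 11 of 12 by at least 1.5-fold (8.74% of all measured genes), with a summed signal of 43889 in control and 9314 in knockout; Cd8b1 and Cd2 were below the floor on both arrays. B and plasma cell markers were higher, 6 of 8 by at least 1.5-fold, where 4.76% of all measured genes were (summed signal 1678 and 5408), with Tnfrsf17 below the floor on both. Much of that sum came from Jchain (593 in control, 2974 in knockout). Ighm had 268 and 1036 (1.95), but 0.072 by its second probe set. Of 9 myeloid markers 7 were measured (5617 and 4351; ratios -1.90 to 2.53; Itgam and Cx3cr1 below the floor), and of 11 markers of stroma, vessel and muscle 4 (1023 and 939; ratios -0.70 to 0.76). Below the floor in that last list were Col1a1, Col3a1, Pdgfra, Pdgfrb, Myh11, Pecam1 and Cdh5. The summed signals of each list include its markers below the floor, whereas ratios and counts leave them out. The part of these cells in the values of the biogenesis genes was not tested.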

How the data were processed

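The deposited values are linear signal intensities of 45101 probe sets, made by the authors with MAS5, per the submitters' processing notes (version not given in the sources used here). Trimmed by 2% at each end, both arrays had a mean of 500.00, so the values were used as deposited. After removal of 64 control probe sets, 34945 probe sets had 1 gene symbol, 932 several and 9160 none here; for 34741 the symbol was brought up to date by Entrez identifier with RefSeq's GRCm38.p6 table. The median signal was 95.4 in control and 90.5 in knockout.

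Signals below the floor were raised to it before the log2 ratio was taken. A gene was measured if above the floor on at least 1 array, and its value is that of the probe set with the highest mean log2 signal. For the probe error, the ratio of the second brightest probe set was subtracted from that of the brightest, and the SD over genes was divided by the square root of 2. With 1 array per group, counts use a fold of 1.5, and counts of members are set beside the share over all measured genes. Python 3.11.15, pandas 2.3.3 and statsmodels 0.14.6 were used, and the functions were tested on simulated data. Alternatives covered scaling, floor, pseudocount, choice of probe set, bright signals and fold. The members and lists were chosen with earlier results of these data known. The naming rule allowed all members, Lpcat3, the Myc network, the 5 highest and 5 lowest further biogenesis genes, the 2 highest and 2 lowest of each marker list, and the control probe sets; lists are otherwise given as counts.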

Additional observations from a re-analysis of the deposited data

Results flagged for a closer look

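A probe set annotated to Mrto4, a factor of large-subunit assembly, and to 2 of its pseudogenes enters none of the comparisons above because its signal cannot be assigned to 1 gene. It drew attention because its signal was higher in the knockout pool than in the control pool, with 1634 against 1114, a log2 ratio of 0.55 (1.47-fold). With it added, an alternative chosen after seeing the data, the median of the then 39 values was 0.034, none was at least 1.5-fold higher and 1 was at least 1.5-fold lower.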

How the results depend on the processing

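No paired analysis was possible because there is 1 array per group, which also leaves no array that could be omitted. Under the settings for scaling, floor, pseudocount, probe sets and bright signals, the median of the biogenesis genes stayed between 0.0079 and 0.072 and the share above 0 between 54.1% and 63.2%. Role-group medians lay between -0.18 and 0.18, and those of polymerase I, the nucleolar proteins and box C/D changed sign. The count at least 1.5-fold higher was 1 (Rrp12) in place of 0 after quantile normalisation, lowess or centring on the median gene, and 3 at the narrower limit of 0.32 (log2). The count at least 1.5-fold lower was 0 once the floor was raised to the 70th percentile, 2 (Rrp9 and Nol6) with the mean of probe sets, and 3 at that narrower limit. With second probe sets that 1 gene was Nolc1 in place of Rrp9. Of 366 recomputed values of single members, 11 in 8 genes moved by more than the probe error. Signs turned with the second probe set for Nolc1 (0.34 to -0.65), Rrp1b (-0.42 to 0.24), Dkc1 (-0.27 to 0.042) and Heatr1 (0.095 to -0.21), among others.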
